A study of Mus musculus with 2 samples.

Results

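A group of 448 mouse genes carried the histone mark H3R17me2a at their start and at their end alike. They were selected on the deposited peaks themselves: protein-coding genes of chromosomes 1 to 19 whose annotated span exceeded 5000 bp, and where a peak of each of the 2 deposited lists reached the window of 1000 bp to either side of both span ends. Of 16092 genes over 5000 bp, 448 met the rule (2.78%), 6779 were marked in this way at 1 end only (42.1%) and 8865 at neither. These counts are the choice of genes and not a result. The data are ChIP-seq of 2 samples of wild-type mouse heart taken 21 days after birth (P21), the only group, in which chromatin bound by an antibody was sequenced and stretches with reads above background were called as peaks. The series design calls the hearts neonatal, 1 label names cardiac fibroblasts while the tissue label and the protocol name heart, and the titles carry the name carm1 although the genotype label reads wild type. In the protocol the target of the antibody is written H3R17me2, without the "a" for asymmetric. The sources used here give neither pooling nor sex nor whether separate animals were sampled, and no input or knockout sample was analysed here.

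The mark was found at most cardiomyocyte markers and few markers of other cell types. Of 8 cardiomyocyte marker genes, 7 had a peak of both lists at an end, all 7 at both ends (Myh6, Tnnt2, Tnni3, Actc1, Pln, Myl2 and Actn2), and Ryr2 had none. None of 7 fibroblast markers, Col1a1 and Pdgfra among them, and none of 5 endothelial markers had one, and of 5 immune markers Cd68 had one. Tnni3 is not among the sarcomere genes over 5000 bp counted below, so the 7 are not all taken as members. Over all genes above 5000 bp, 2.78% were marked at both ends and 42.1% at 1 end. Of 4569 smaller genes, 239 were marked at both ends. The windows of small genes can overlap, so that 1 peak can reach both, and this count is not comparable with that of larger genes. In longer lists over 5000 bp, 4 of 23 fibroblast and matrix genes (Tgfb1, Col4a1, Sparc and Vim) and 2 of 17 endothelial genes (Esam and Nos3) had a marked end. A ChIP signal from whole tissue averages over its cells, so more cells with the mark and more mark per cell cannot be told apart.

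The lists, named 1 and 2 after the sample numbers, were not treated as independent replicates. They held 21496 and 38012 peaks, with a lowest −log10 p of 5.0 and 2.01. Reads at each summit could be recovered from the deposited fold and p-value. Where overlapping peaks of the lists had the same summit base, the recovered reads differed with an SD of 0.303 in units of counting error, against 1 for independent draws. The list 2 reads rest on a scale fitted at such peaks, so part of this closeness was built in. At the ends of the 448 genes, 43.1% of overlapping list pairs had the same summit base (369 of 856). Over all overlapping pairs this share was much the same, 42.1% (8825 of 20978). Over all overlapping pairs with recovered reads, 71.4% differed by at most 2 reads (14966 of 20965). The samples were therefore counted as 1 sample, and no SD between animals exists. A value given for both lists is not a replication, and whether the lists differ by peak calling alone was not tested. Genes are not replicates of a condition, so no test across genes was made. Intervals below are 95% exact binomial and cover counting error only.

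Carm1 is an arginine methyltransferase and transcriptional coactivator that places an asymmetric dimethyl group on arginines of histone H3, including the residue named R17. The mark is known from promoters and enhancers of genes that nuclear receptors and other factors activate. A gene's start is where RNA polymerase begins, and its 3′ end is where the transcript is cut and polyadenylated. In compact stretches of the genome the 3′ end of 1 gene can lie beside the start of the next, so a peak there may belong to either gene.

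Start sites came from RefSeq promoters (GRCm38.p6), which listed a start with strand for 374 of the 448 genes and for 12774 of the 16092. At 342 of the 374 a listed start of the gene itself lay in the start window, and at none in the 3′ window. The 250 bases before the start are printed for 4 member genes and for 2 genes that start at a member's 3′ end, because the results turn on which start a peak lies beside. Each runs 5′ to 3′ on the gene's own strand. Capitals mark matches, on either strand, to the TATA box (TATAAA), the GC box (GGGCGG), the CCAAT box (CCAAT), the ETS site (CCGGAAG), the GATA site (AGATAA) and the CArG box, the element that serum response factor binds. A match is a description of letters and not evidence of binding. Actc1, Tnnt2 and Pln encode cardiac actin, cardiac troponin T and phospholamban and have no other annotated gene end within 2000 bp of the 3′ end.
Actc1, chr2:114052876-114053125, minus strand: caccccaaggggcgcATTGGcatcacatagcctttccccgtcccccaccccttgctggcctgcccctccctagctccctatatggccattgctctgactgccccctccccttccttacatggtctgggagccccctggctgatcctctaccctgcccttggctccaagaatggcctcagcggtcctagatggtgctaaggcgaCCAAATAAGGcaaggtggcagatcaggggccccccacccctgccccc
Tnnt2, chr1:135836084-135836333, plus strand: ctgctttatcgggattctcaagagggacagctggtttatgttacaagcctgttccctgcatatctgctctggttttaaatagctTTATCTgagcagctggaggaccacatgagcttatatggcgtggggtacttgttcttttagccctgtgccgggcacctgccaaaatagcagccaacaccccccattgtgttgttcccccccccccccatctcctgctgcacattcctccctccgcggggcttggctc
Pln, chr10:53337436-53337685, plus strand: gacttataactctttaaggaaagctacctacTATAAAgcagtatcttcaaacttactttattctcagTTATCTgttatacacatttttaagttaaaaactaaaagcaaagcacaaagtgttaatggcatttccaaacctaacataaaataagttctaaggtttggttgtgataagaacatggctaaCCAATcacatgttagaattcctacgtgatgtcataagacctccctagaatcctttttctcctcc
The CArG box of Actc1 begins 47 bases before the start. The next pair lies on chromosome 11 in tandem: Ctdnep1, a nuclear envelope phosphatase, ends shortly before Gabarap, an autophagy protein, begins on the same strand.
Ctdnep1, chr11:69980918-69981167, plus strand: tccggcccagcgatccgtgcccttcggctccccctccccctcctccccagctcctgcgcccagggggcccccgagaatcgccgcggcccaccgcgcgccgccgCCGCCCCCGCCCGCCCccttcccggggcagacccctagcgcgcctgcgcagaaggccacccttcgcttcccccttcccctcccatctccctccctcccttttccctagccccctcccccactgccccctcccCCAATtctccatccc
Gabarap, chr11:69991120-69991369, plus strand: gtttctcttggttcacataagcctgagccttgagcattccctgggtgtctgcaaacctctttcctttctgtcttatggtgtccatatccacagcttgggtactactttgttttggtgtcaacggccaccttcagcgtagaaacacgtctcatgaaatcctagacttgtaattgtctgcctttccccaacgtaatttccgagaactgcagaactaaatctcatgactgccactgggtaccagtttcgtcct
The Ctdnep1 stretch held 22 CpG dinucleotides and 3 GC boxes, and the Gabarap stretch held 6 CpG dinucleotides and none of the capitals' motifs. The last sequence precedes Prdx5, a peroxiredoxin gene that starts at the 3′ end of Esrra, a nuclear receptor gene of mitochondrial metabolism.
Prdx5, chr19:6910107-6910356, minus strand: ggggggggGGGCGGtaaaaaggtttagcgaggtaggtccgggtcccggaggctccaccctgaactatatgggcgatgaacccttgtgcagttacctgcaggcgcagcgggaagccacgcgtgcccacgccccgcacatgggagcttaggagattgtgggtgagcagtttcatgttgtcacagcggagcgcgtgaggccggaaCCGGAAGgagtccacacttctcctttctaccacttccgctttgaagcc
It held 17 CpG dinucleotides, 1 GC box and 1 ETS site.

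Genes marked at both ends lay close to other genes. Another protein-coding gene ended or began within 2000 bp of at least 1 end in 63.8% of them (286 of 448, interval 59.2 to 68.3%), against 45.2% of genes marked at 1 end (44.0 to 46.4%) and 25.5% of genes with neither end marked. At both ends at once this held for 21.2%, 9.96% and 3.63%. Members were shorter than 1-end genes, and closeness varied with span. For at least 1 end, the shares of members and 1-end genes were 73.5% and 62.3% at 5000 to 10000 bp, and 72.2% and 52.6% at 10000 to 20000 bp. They were 61.0% and 44.8% at 20000 to 50000 bp, and 42.5% and 31.5% above 50000 bp. No annotated gene end of any type lay within 2000 bp of either end in 26.8% of the both-end genes (120), 40.6% of 1-end genes and 60.5% of unmarked genes. Neighbouring members also shared peaks: in 76 of the 448, a list 1 peak at an end also reached the end of another member. In 96 members an end had more than 1 list 1 peak. With both effects, the 448 genes rest on 970 distinct list 1 peaks at their ends.

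Among genes with a listed start, the mark was much more frequent at starts than at 3′ ends. Both lists had a peak at the start in 44.4% of the 12774 genes and at the 3′ end in 4.51% (576). The 3′ end was marked in 6.60% of genes with a marked start (374 of 5667, interval 5.97 to 7.28%) and in 2.84% of genes without (202 of 7107, 2.47 to 3.26%). These shares use the peaks that chose the members and are given as a description.

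The neighbourhood of the 3′ end went with large differences in that share. Where another gene's listed start fell in the 3′ window, the 3′ end was marked in 39.6% (160 of 404, interval 34.8 to 44.6%). That is close to the 44.4% of starts overall. Where another annotated gene end of any type lay within 2000 bp but no listed start in the window, it was marked in 6.95% (211 of 3036, 6.07 to 7.91%). With no annotated end within 2000 bp it was marked in 2.20% (205 of 9334, 1.91 to 2.51%). The order was the same whether or not the gene's own start was marked, and within each neighbourhood the share was higher with a marked start: 43.6% against 35.0%, 8.75% against 5.01%, and 3.64% against 1.17%. The intervals of the first pair overlap and those of the other pairs do not.

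**Figure D1:**
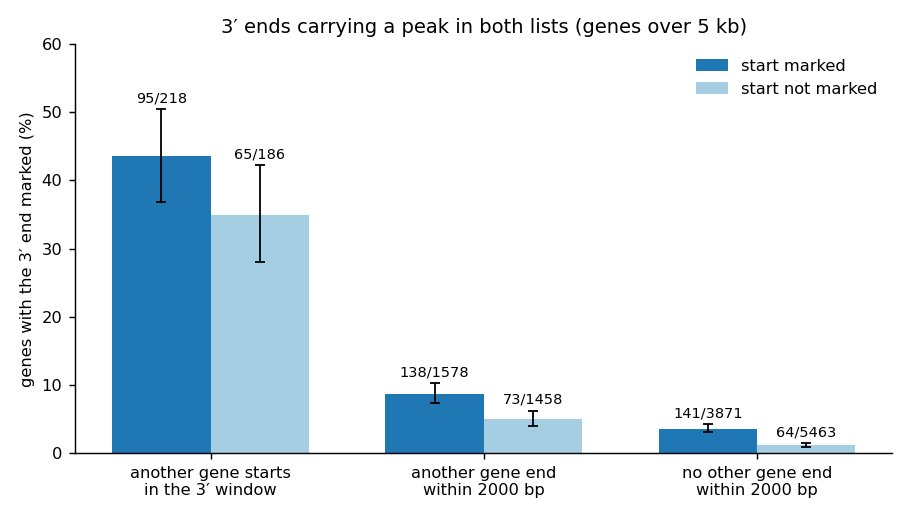
Share of 3′ ends with a peak in both lists (y axis, percent) by what lies near the 3′ end (x axis), for genes over 5000 bp with the start marked (dark) or not marked (light). Bars show the share, error bars the 95% exact binomial interval and labels the number of genes marked of all genes in the class, and shares fall from 43.6% and 35.0% at the left to 3.64% and 1.17% at the right.

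By this neighbourhood the 374 members with a known strand fell into 3 classes. In 95 (25.4%, interval 21.1 to 30.1%) another gene started in the 3′ window, in 138 another annotated end lay near, and in 141 none did. Strand was not listed for the other 74. Another gene started in the 3′ window of 2.32% of genes marked at the start only and of 32.2% of genes marked at the 3′ end only. Another gene started in the start window of 26.2% of members and 30.9% of start-only genes. Of the 95 other genes, 84 ran on the same strand as the member, so that a tandem order was the usual one, 86 were protein-coding and 9 were long noncoding RNAs. Pairs of this kind were Ctdnep1 and Gabarap, Esrra and Prdx5, the glycolytic Pkm and Gramd2, the ribosomal Rpl4 and Snapc5, the splicing gene Sf3b2 and Pacs1, and the mitochondrial ribosomal gene Mrps18b and Atat1.

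Summit positions set the class with another start at the 3′ end apart from the others. In the direction of transcription, the start summit lay 39.5 bp (list 1) and 21 bp (list 2) downstream of the annotated start at the median. The 3′ summit lay a median of 452 bp and 506 bp past the 3′ end, outside the gene, and was inside the gene in 29.9% (112 of 374) and 28.1%. Where another gene started in the window, the summit lay inside the member gene in only 8.42% (8 of 95, interval 3.71 to 15.9%, list 1) and 7.37% (list 2). There it was nearer to the other gene's start than to the member's 3′ end in 86 of 95 and 87 of 95, at a median distance of 104 bp and 111 bp from that start. It was within 500 bp of that start in 84 of 95 in each list. With no annotated end near, 41.8% (59 of 141, interval 33.6 to 50.4%) and 39.7% of the 3′ summits were inside the gene. The class with another end near overlapped it, with 32.6% (45 of 138, interval 24.9 to 41.1%) and 30.4%.

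**Figure D2:**
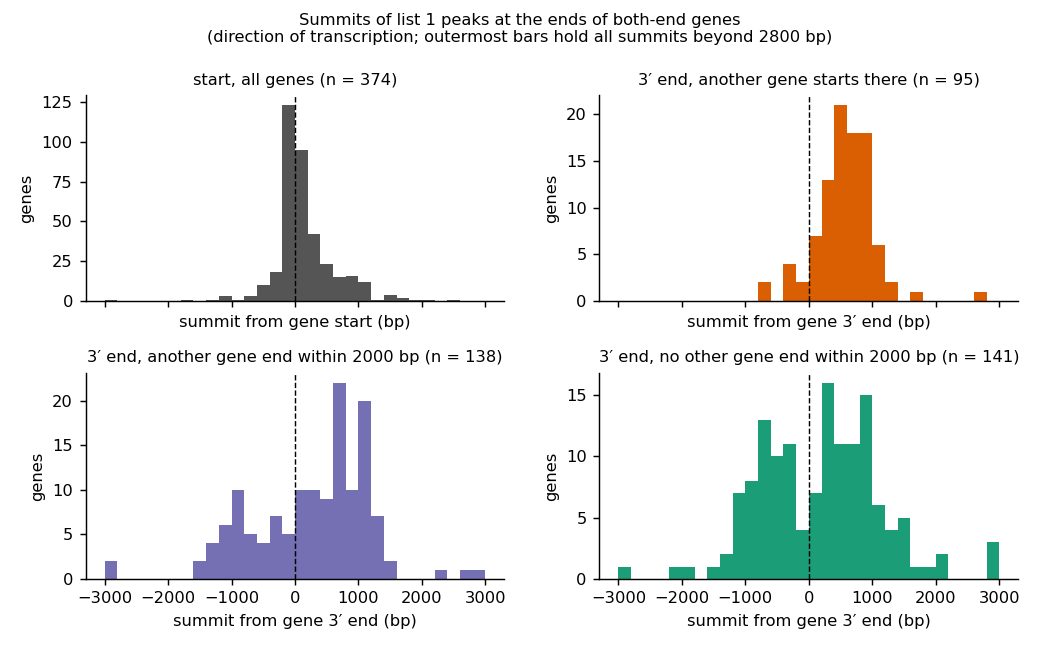
Position of the list 1 summit (x axis, bp in the direction of transcription, 0 at the annotated end) at the starts of the 374 genes and at their 3′ ends by neighbourhood (y axis, number of genes per 200 bp). Start summits gather around 0, 3′ summits beside another gene's start lie mostly past the 3′ end, and those with no annotated end near fall on both sides of it.

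The 2 ends differed in opposite ways by fold and by reads. The deposited fold, the authors' ratio of ChIP signal to local background at the summit, had medians of 4.0 (list 1) and 3.86 (list 2) at the start and of 5.22 and 4.29 at the 3′ end. Median recovered reads were 66 and 71 at the start and 26 and 27 at the 3′ end. The recovered background was 14.5 and 10 at the start against 4.0 and 3.0 at the 3′ end, list 2 values being on the scale of that list. The start had the higher fold in 35.6% of the 374 genes in list 1 (interval 30.7 to 40.7%) and 41.2% in list 2 (36.1 to 46.4%), and more reads in 74.3% and 73.5%. By these medians the 3′ peaks had higher folds, a lower background and fewer reads. The parts of local background and of the peak thresholds in the folds were not tested. Members had to pass both lists, and with genes chosen by list 2 alone the start had the higher fold in 49.2% in list 2. With only the upper 50% of each list by fold, the start had the higher fold in 51.9% of members in list 1. The direction by fold therefore depends on which peaks enter.

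The contrast by reads widened with distance from other genes, and that by fold was clear in both lists only with no annotated end near. The start had more list 1 reads in 57.9% of members with another start in the 3′ window (55 of 95), 73.9% with another end near (102 of 138) and 85.8% with none near (121 of 141). In list 2 these shares were 58.9%, 72.5% and 84.4%. The start had the higher fold in 54.7%, 37.0% and 21.3% of the same classes in list 1 and in 47.4%, 47.8% and 30.5% in list 2. Beside another start the interval therefore included an even split in both lists (44.2 to 65.0% and 37.0 to 57.9%). The 3′ fold of the same classes had medians of 4.20, 5.0 and 6.30 in list 1 and 4.03, 4.12 and 4.87 in list 2, while the start fold lay between 3.56 and 4.11 in both lists. Median 3′ reads were 36, 24.5 and 20 in list 1. The end with the higher fold was the same in both lists in 327 of 448 members (73.0%). The strongest peaks of the lists overlapped each other at both ends in 408 of 448 (91.1%).

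**Figure D3:**
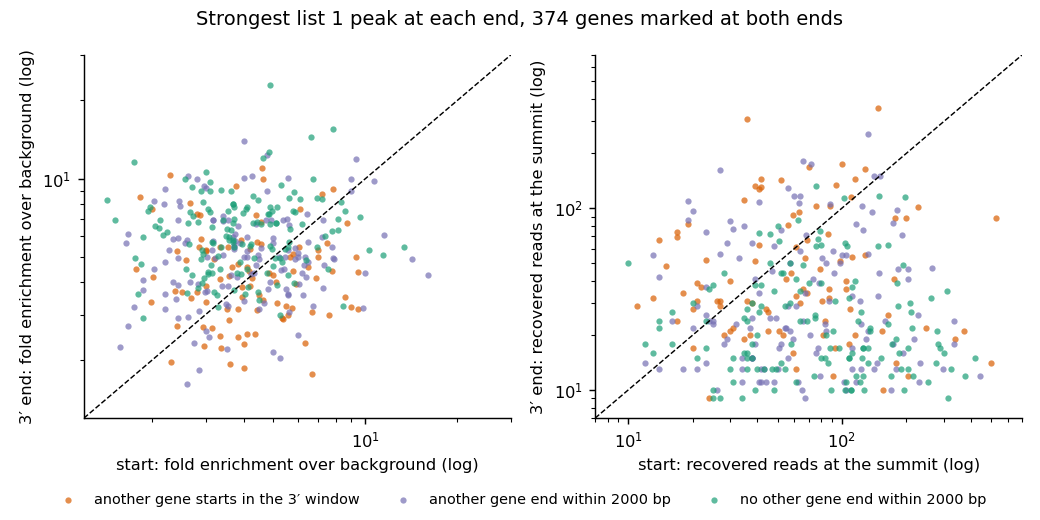
Fold enrichment (left) and recovered reads (right) of the strongest list 1 peak at the start (x axis) and at the 3′ end (y axis) of the 374 genes, on log axes, with colours for the 3′ neighbourhood and a dashed line where both ends are equal. By fold 35.6% of genes have the higher value at the start, by reads 74.3%, so the cloud moves from above the line to below it.

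The weaker end is here the one with the lower fold, which need not be the less firm call. At Cpt1b in list 1, the end with a fold of 5.87 had 134 reads and a −log10 p of 58.7. Its end with a fold of 7.38 had 16 reads and a −log10 p of 13.1. Over all members the fold of the weaker end was 3.60 at the median in list 1 and 3.26 in list 2. That of the stronger end was 5.85 and 5.19. The median ratio between them was 1.54 and 1.5. At genes marked at 1 end the marked end had 4.0 and 3.77. A place between the weaker and stronger ends of members follows from taking the lower and higher of 2 folds. By the start alone, members had 4.0 and 3.86, and genes marked at the start only 4.0 and 3.77. No member had an end below a −log10 p of 5 in list 1, where that is the lowest value, and 148 had such an end in list 2. List 1 alone gave 461 both-end genes and list 2 alone 880, so list 1 limits the group. Holding both lists to a −log10 p of 5 left 305 genes, and the upper 50% of each list by fold left 61.

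Members were shorter than the other genes and yet held more peaks between their ends. Their median span was 17434.5 bp (quartiles 9633 to 36462 bp), against 27593 bp for 1-end genes and 25182 bp for unmarked genes. A peak of list 1 that overlapped list 2 lay between the end windows in 46.9% of members (210 of 448, interval 42.2 to 51.6%), 24.5% of 1-end genes (23.5 to 25.5%) and 15.8% of unmarked genes, against 20.3% of all genes over 5000 bp. The order held in each span class. In genes of 5000 to 10000 bp the shares were 32.5% of members and 8.30% of 1-end genes, in 10000 to 20000 bp 41.3% and 13.6%, in 20000 to 50000 bp 52.5% and 21.3%, and above 50000 bp 66.7% and 44.3%. Per 10000 bp between the windows, members of these classes held 1.17, 0.895, 0.892 and 0.787 peaks and 1-end genes 0.180, 0.148, 0.145 and 0.129. These inner peaks were rare where another gene started at the 3′ end (15 of 95 members) and frequent where no annotated end was near (98 of 141), with 59 of 138 in the class between. The classes also differed in span, with medians of 12098 bp beside another start, 16135.5 bp in the class between and 23399 bp with none near. The part of span in this contrast was not tested.

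A small set of members was covered by peaks over most of their length. Peaks covered a median of 5.29% of the span of members in list 1 and 9.08% in list 2, against 1.54% and 2.36% for 1-end genes. At least 50% of the span was covered in both lists in 25 members and in 1 of the 6779 1-end genes. Covered length includes the end peaks that the rule required, and members were shorter. These contrasts with 1-end genes therefore follow in part from the choice of genes and are a description. Named after their values were seen, the 25 were Actc1, Myl2, Mybpc3, Lmod2, Csrp3, Myl3, Synpo2l, Myh6, Xirp1, Tpm1, Tnnt1, Ankrd23, Fhl2, Crip2 and Bag3 of muscle structure and its upkeep, the calcium pump gene Atp2a2, the neighbour gene Cmtm5, the regulators Nr1d1, Atf3, Cish, Rbm38 and Midn, the growth factor gene Vegfa, and Plin4 and Cox17. At Cmtm5 (chromosome 14, 54936176 to 54943045) 1 peak of 20063 bp in list 1 and 1 of 10643 bp in list 2 covered the whole gene, the only case in which 1 peak reached both windows in both lists. The list 1 peak ran from 54934694 to 54954756 and so also over the 3′ part of Myh6, the adult cardiac myosin heavy chain gene (54941921 to 54968017, minus strand).

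Genes of the sarcomere, the contractile unit of muscle, had the largest share of both-end genes among 28 gene lists. These lists were written with earlier results of the same data known, so their order is a description. Of 31 sarcomere genes over 5000 bp, 18 were marked at both ends (58.1%), 8 at 1 end and 5 at neither, against 2.78% of all genes at both ends. The thick filament had Myh6, Myh7, Myh7b, Myl2, Myl3 and Mybpc3, the thin filament Actc1, Tnnt2, Tpm1 and Lmod2, the Z-disc and its links Actn2, Csrp3, Flnc, Des, Synpo2l and Xirp1, and Ttn and Ankrd1 belong to the elastic filament and its stretch-sensing partners. Of the 18, 1 had no listed strand, so its 3′ end was not classed. None of the other 17 had another gene's start in the 3′ window: 11 had no annotated end near the 3′ end and 6 had one. A peak lay between the windows in 17, and list 1 peaks covered 9.57 to 95.4% of their spans, with a median of 54.2%. Covered length and a peak at both ends go together by construction, and wide peaks near an end can reach its window. With the summit itself required in the window, 10 remained both-end genes out of 323 in all, with both lists in their upper 50% by fold 5 out of 61, and above 10000 bp of span 11 out of 331.

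At single sarcomere genes the ends were unequal. Actc1 (chromosome 2, 114047282 to 114052875, minus strand) had folds of 7.86 in list 1 and 6.0 in list 2 at the start and 15.5 and 10.1 at the 3′ end, with 164 and 202 reads at the start and 63 and 64 at the 3′ end. The 3′ peaks were 3173 and 3156 bp wide, and peaks covered 73.0% and 80.9% of the gene. Tnnt2 (chromosome 1, 135836315 to 135852268) had the higher fold at the start, 9.57 and 6.76 against 7.15 and 5.32, with 8 shared peaks between the ends. Its 3′ summits lay 1426 and 1430 bp beyond the gene. Ttn (chromosome 2, 76703980 to 76982557, minus strand), which encodes the giant spring protein titin, had 127 shared peaks between its ends, the most of all members, and folds of 2.83 and 2.42 at the start and 6.84 and 5.60 at the 3′ end. Its reads ran the other way, with 115 and 116 at the start and 40 and 39 at the 3′ end. Over the 18 genes the weaker end ran from 2.83 at Ttn to 7.86 at Actc1 in list 1. The sarcomere genes marked at 1 end included Cryab, Ldb3, Myom1, Myom2, Myoz2, Smyd1 and Xirp2, and those marked at neither were Myl4, Mylk3, Myot, Neb and Nebl.

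**Figure D4:**
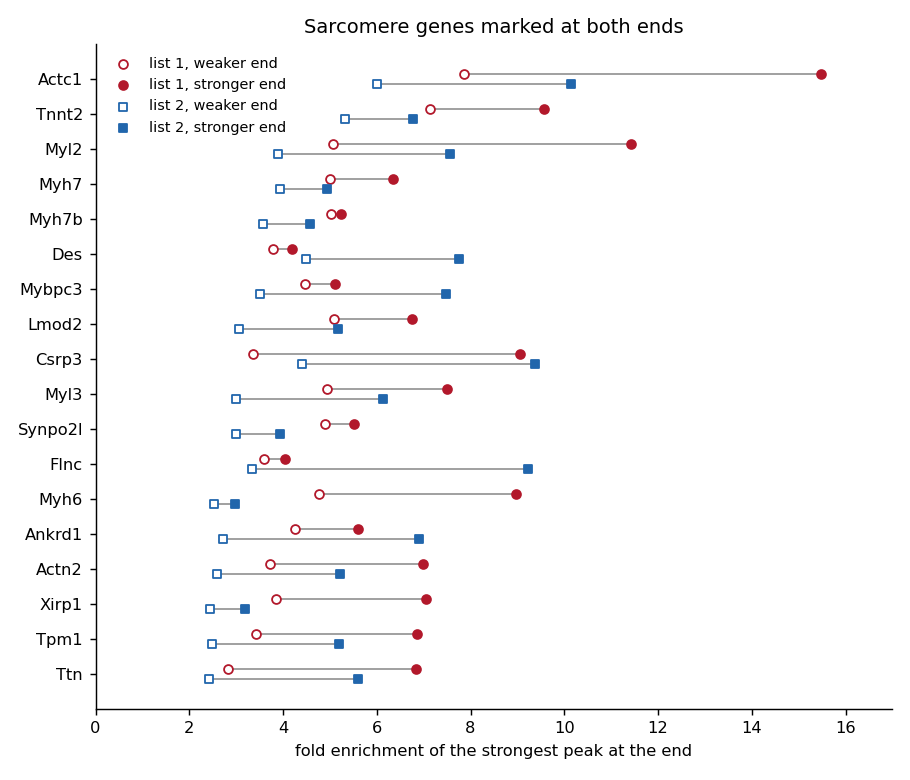
Fold enrichment (x axis) of the weaker end (open) and stronger end (filled) of the 18 sarcomere genes marked at both ends, in list 1 (circles) and list 2 (squares), with grey lines joining the ends of a gene. Actc1 reaches 15.5 in list 1, and the weaker end of Ttn lies at 2.83 and 2.42.

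In the paragraphs on gene lists that follow, each share of members stands against the 2.78% of all genes over 5000 bp marked at both ends, and each share at 1 end against 42.1%. Of 24 calcium handling genes, 3 were members (12.5%) and 16 had 1 end marked (66.7%), and list 1 peaks covered 25.9 to 68.7% of the members. All 3 had no annotated end near either end: Pln, the inhibitor of the calcium pump, Jph2, which holds the junction between the surface membrane and the sarcoplasmic reticulum, and Atp2a2, the pump itself. Pln (chromosome 10, 53337686 to 53345999) had folds of 6.12 and 3.96 at the start and 8.34 and 7.10 at the 3′ end on 14 and 24 reads in each list, and peaks covered 30.1% and 49.0% of it. Jph2 had 8.45 and 6.0 at the start, 3.25 and 3.15 at the 3′ end and 21 shared peaks between. Atp2a2 had 25 shared peaks between and 68.7% and 65.4% covered. Of 27 ion channel and conduction genes, 4 were members (14.8%), with a median of 6.05% of the span covered in list 1, near the 5.29% of all members. Among them were the sodium pump subunit gene Atp1b1 and the potassium channel gene Kcnj5. Atp1b1 had 7.24 and 5.49 at the start on 102 and 105 reads, and 5.97 and 4.26 at the 3′ end on 11 and 10 reads.

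Of 30 cardiac transcription factor genes, 3 were members (10%). Nkx2-5, a homeobox factor of heart identity, was covered over 43.4% and 48.2% of its 6325 bp, with folds of 4.22 and 3.02 at the start and 5.60 and 3.91 at the 3′ end, but no listed start of it lay in its start window. Myocd, the coactivator of serum response factor, had 5.47 and 3.59 at 1 end and 3.47 and 5.32 at the other, and no listed strand. Its relative Mrtfb had 1.97 and 2.10 at the start and 7.80 and 10.5 at the 3′ end.

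Regulators of energy metabolism were members at 7 of 34 (20.6%): Esrra, Nr1d1, Ppargc1a, Thra, Rxrb, Mtor and Perm1. Only Ppargc1a, the coactivator of mitochondrial biogenesis, had no annotated end near either end. It spans 661605 bp with 40 shared peaks between its ends, and had folds of 3.72 and 4.42 at the start and 7.80 and 5.02 at a 3′ summit 2007 bp beyond the gene. That start is the end of its annotated span, and no listed start of the gene lay in the window. Esrra had 8.72 and 9.48 at the start and 6.75 and 4.36 at the 3′ end, where the summit lay 241 and 221 bp from the start of Prdx5. Thra and Nr1d1, a thyroid hormone receptor and a clock repressor, are neighbours that share the peak with folds of 6.99 and 3.94, and Nr1d1 was covered over 61.9% and 62.7%. With 1 end peak in common, the pair holds 3 marked ends, not 4. The circadian clock list had 3 of 19 (15.8%), Nr1d1, Bhlhe40 and Per1.

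Enzymes of fuel use followed. Fatty acid uptake and oxidation had 6 of 39, or 15.4% (Cpt1b, Ech1, Acot13, Pdk4, Fabp3 and Plin5), glycolysis and glycogen 5 of 25, or 20% (Pygm, Pkm, Gys1, Ugp2 and Pygb), and oxidative phosphorylation with the tricarboxylic acid cycle 6 of 41, or 14.6% (among them Atp5a1, Cs, Cox4i1, Ndufa10 and Ogdh). In that last list a further 34 genes were marked at 1 end and 1 at neither. Cpt1b, which admits fatty acids to mitochondria, had 7.38 and 5.76 at 1 end on 16 and 17 reads, and 5.87 and 4.62 at the other on 134 and 133 reads. Pkm, pyruvate kinase, had 4.57 and 3.99 at the start and 6.84 and 6.28 at the 3′ end, in whose window Gramd2 starts. Cs, citrate synthase, rested on 14 and 9 reads at the start and 13 in each list at the 3′ end, and its start peaks did not overlap between the lists. None of the 5 glycolysis members was free of other gene ends at both its ends, and 1 of the 6 in each of the other 2 lists was.

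**Figure D5:**
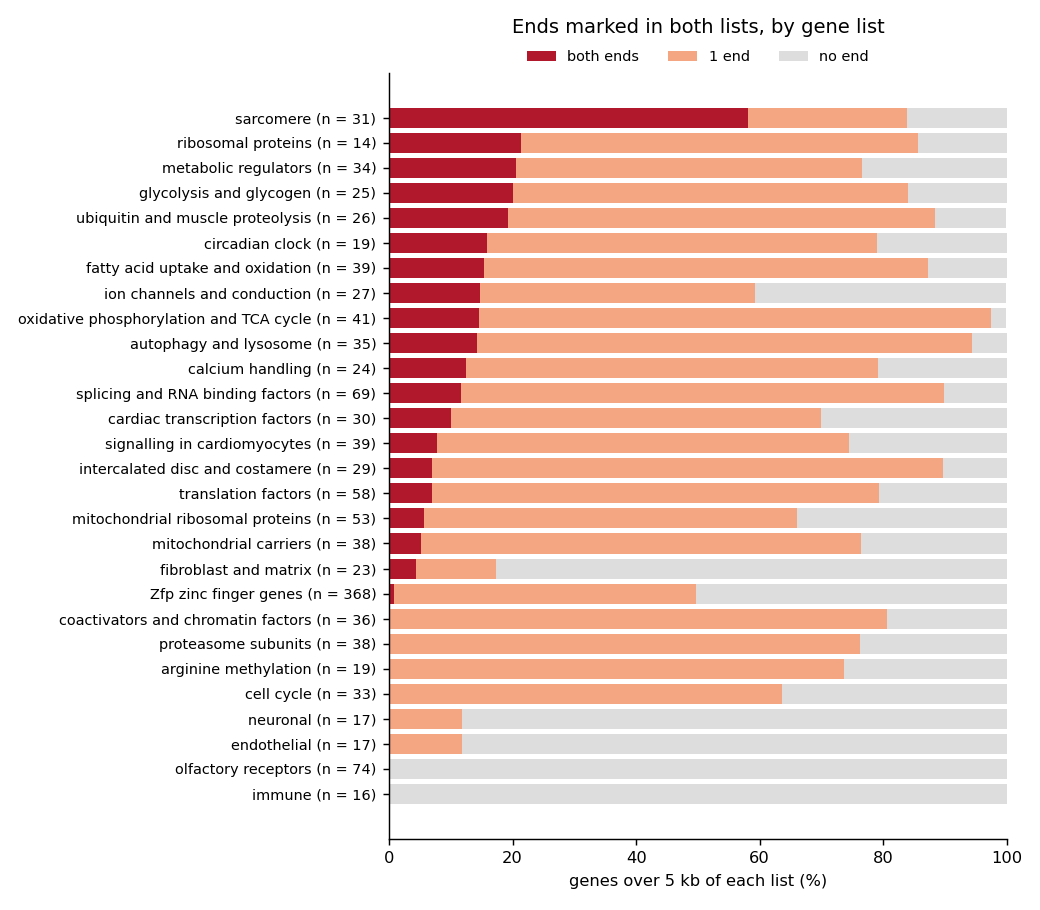
Share of the genes over 5000 bp of each list (y axis, with the number of genes) marked at both ends (dark), at 1 end (light) and at neither (grey), in percent (x axis). The sarcomere list reaches 58.1% at both ends, and 8 lists have no gene marked at both ends.

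Protein turnover genes included muscle ubiquitin ligases away from other genes. The ubiquitin and muscle proteolysis list had 5 of 26, or 19.2% (Asb2, Trim63, Hsp90aa1, Hspb8 and Usp2), 3 of them with no annotated end near. Asb2, a ubiquitin ligase subunit, had 10.3 and 7.79 at the start, 5.31 and 3.54 at the 3′ end and 15 shared peaks between. Trim63, the muscle ligase MuRF1, had 3.14 and 3.50 at the start on 181 and 185 reads, and 5.72 and 4.19 at the 3′ end on 39 reads in each list. Autophagy and lysosome had 5 of 35, or 14.3% (Bag3, Sqstm1, Ctsd, Atg9a and Tfeb). Bag3, a chaperone partner at the Z-disc, had 13 shared peaks between its ends, 56.2% and 70.8% covered, and folds of 4.29 and 3.45 at the start and 8.61 and 5.69 at the 3′ end.

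Genes of protein synthesis and RNA processing were members too, and several had a 3′ end beside another start. Ribosomal proteins had 3 of 14, or 21.4% (Rpl3, Rpl4 and Rpl3l), and another gene started in the 3′ window of 2 of these. Rpl4 had 8.60 and 5.68 at the start and 3.50 and 4.30 at the 3′ end with 0.135% of the span covered in list 1, so nearly all of its mark lay outside the gene. Splicing and RNA binding factors had 8 of 69 (11.6%). Rbm20, the muscle splicing regulator, differed from the rest with 67 shared peaks between its ends, no listed strand and folds of 5.84 and 4.40 at 1 end and 7.34 and 4.38 at the other. Sf3b2 had 5.0 and 10.3 at the start and 4.27 and 4.21 at the 3′ end by Pacs1. Translation factors had 4 of 58 (6.90%), mitochondrial ribosomal proteins 3 of 53 (5.66%) and mitochondrial carriers 2 of 38 (5.26%). Mrps18b had 338 reads at the start in each list and 19 at the 3′ end by Atat1, with folds of 4.64 and 2.88 against 9.95 and 6.37.

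Signalling in cardiomyocytes had 3 of 39 (7.69%), the intercalated disc and costamere 2 of 29 (6.90%), and fibroblast and matrix genes 1 of 23 (4.35%), counts of 1 to 3 genes. The fibroblast and matrix member was Tgfb1, with 5.31 and 4.52 at the start on 12 and 13 reads, and Col4a1, Sparc and Vim were marked at 1 end. Zfp zinc finger genes had 3 of 368 (0.815%) and 180 marked at 1 end (48.9%). No gene was marked at both ends among coactivators and chromatin factors (80.6% at 1 end, 29 of 36), proteasome subunits (76.3%, 29 of 38), arginine methylation (73.7%, 14 of 19) and the cell cycle (63.6%, 21 of 33). In lists of this size a share of 2.78% is about 1 gene or less, so these zeros lie near the background. Endothelial and neuronal genes had 2 of 17 each at 1 end, and immune genes (16) and olfactory receptors (74) none at any end. In all, 93 of the 448 members stood on a list, so most members are described only by the counts above.

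Among the 12 members with the lowest summed ranks by the weaker fold, only Actc1 stood on a gene list. Whether the others act in heart was not tested, and a high fold can rest on few reads. Ranked by the weaker fold in both lists, Ccdc142 came first with 11.9 and 8.60 at 1 end and 13.7 and 8.17 at the other, on 23 and 40 reads in list 1 and 22 and 38 in list 2. It was followed by the muscle myosin gene Myo18b (9.25 and 9.74, 11.5 and 9.04), the uridylyltransferase gene Tut1 (10.7 and 6.52, 9.75 and 7.90), Gse1, the kinase gene Map4k2 and Actc1. Mypop, Ell, Ggt1, Pgpep1, Cpeb4 and Ctdnep1 completed the upper 12. Of these 12, Myo18b, Mypop, Pgpep1 and Cpeb4 had no annotated end within 2000 bp of either end. The highest 3′ fold of all members was at Syf2, a spliceosome gene, with 23.0 and 16.9 on 68 and 65 reads at a summit 965 and 964 bp past the gene, against 4.88 and 6.66 at its start. Ctdnep1 had 7.85 and 5.27 at the start on 115 and 110 reads and 9.13 and 5.44 at the 3′ end on 145 and 148 reads, with the summit 335 bp before the start of Gabarap in both lists.

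The longest members were Cdkal1 (663938 bp), Ppargc1a, Gse1 (352883 bp), Ablim1 (282612 bp) and Ttn, and the shortest Slc25a34 (5073 bp), Hes7 (5149 bp) and Rpl4 (5176 bp). Just under the span minimum, Gm46294 (4984 bp), Tmem253 (4936 bp) and Ppp1r3c (4874 bp) were marked at both ends in both lists as well. Cdkal1 rested on 9 and 8 reads at the 3′ end, the lowest of any named member, and its 3′ summits lay on opposite sides of the gene end. By chromosome the share of members ran from 0.687% on chromosome 18 (3 of 437) to 5.88% on chromosome 19 (31 of 527), with 4.50% on 17 and 3.98% on 11.

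By CpG content the start sequences of members lay nearer to other marked starts than to unmarked ones. Over 250 bases before to 50 after the start, the ratio of observed to expected CpG dinucleotides had a median of 0.772 in members, 0.824 in genes marked at the start only, 0.537 in genes marked at the 3′ end only and 0.417 in genes with neither marked, against 0.567 over all protein-coding starts. A GC box stood in 66.8% of member starts (250 of 374), 70.3% of start-only genes and 46.2% of all protein-coding starts, and an ETS site in 16.8%, 21.4% and 11.6%. The CArG box stood in 6 of 141 member starts with no annotated end near the 3′ end (4.26%), in 1 of 95 with another start there, and in 1.52% of all starts, too few for an order.

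Starts of other genes that lay at 3′ ends differed by whether the 3′ end was marked. Over 158 such starts at marked 3′ ends the CpG ratio had a median of 0.740, against 0.336 over 243 at unmarked 3′ ends. A GC box stood in 65.8% against 39.9%, an ETS site in 26.6% against 9.47%, and a TATA box in 8.23% against 11.9%. At marked 3′ ends these values lay near those of marked starts, and at unmarked 3′ ends near those of unmarked genes. The list of starts is not complete, and sequence of the 3′ ends themselves was not analysed here.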

How the data were processed

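H3R17me2a ChIP-seq was analysed in 2 samples of 1 group, each with 1 deposited peak list. Per the submitters' processing notes, tools included FastQC and Bowtie2 and the build was mm10. For the peak caller, control and filters: not given in the sources used here. Fold enrichment is a ratio of ChIP to background made by the authors for each summit, judged from the 10-column layout. For p and q the deposited values are −log10. The deposited score was not used in any result. These are the authors' own values per peak.

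Genes came from RefSeq (GRCm38.p6, whose primary chromosomes have mm10 coordinates), which held 20661 protein-coding genes on chromosomes 1 to 19. Overlap meant at least 1 bp and coordinates are 1-based. An end took the peak of highest fold reaching its window of 1000 bp to either side. Where several promoters were listed for a gene, the start used was the one nearest the span end, and the strand was that of the promoter. Strand was checked by the position of TATAAA matches. Members and lists were chosen with earlier results of these data known.

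Reads were recovered as the whole number that, with a pseudocount of 1 on reads and background, gave the fold, and by the upper Poisson tail the p. This matched p (tolerance 0.001 in −log10) at 99.97% of peaks for list 1. For list 2, with a read scale of 0.618, it was 99.92%. Total depth is unknown. Recovery and marking were tested on simulated data.

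Members were ranked by the weaker end's fold in each list and the ranks summed. Named were the 12 lowest sums, the 10 lowest with no annotated end within 2000 bp, up to 2 per list, the 5 longest and 3 shortest, the 3 just under 5000 bp, genes with 1 peak at both ends and the 3 with most inner peaks. Some genes that the rule selects are left out of the text. Other names follow counts or were chosen after their values were seen. Alternatives changed the window, the peak threshold, the summit rule, the lists used, the span minimum and the neighbours. Python 3.11.15, pandas 2.3.3, numpy 2.4.6, scipy 1.17.1 and matplotlib 3.10.9 were used.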

Additional observations from a re-analysis of the deposited data

How the results depend on the processing

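The samples were counted as 1, and all values rest on peaks whose 3′ reads were few (median 26 and 27), so a threshold moves the group. Of 136 alternative values, 83 stayed within 1.5 times the reported count or within the 95% interval of the reported share or median, and 53 moved. The alternatives for the shares of marked 3′ ends and for the sarcomere count were chosen after seeing the data. No paired analysis was possible because there is 1 group. In what follows, the count is that of both-end genes, the share both is their percentage of all marked genes over 5000 bp, near is the percentage with a coding gene end within 2000 bp, inner is the percentage with a peak between the ends, and the 3′ shares are those of marked 3′ ends beside another start and with no annotated end near.

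Windows of 500 bp gave a count of 261, a share both of 3.85%, near 58.6%, inner 53.6% and 3′ shares of 27.2% and 1.41%. Windows of 2000 bp gave 736, 9.58%, inner 38.0% and 3.65% with no end near. A −log10 p of at least 5 in both lists gave a share both of 4.96%, near 46.7% of 1-end genes, a list 2 weaker-end fold of 3.59, the start stronger in 34.4% in list 2, inner 38.4% and 3′ shares of 32.4% and 1.65%. The upper 50% of peaks by fold gave a count of 61, a share both of 2.71%, near 59.0% and 48.5% (1-end genes), weaker-end folds of 5.80 and 4.28, the start stronger in 51.9% and 48.1%, a median span of 14856 bp, 3′ shares of 13.4% and 1.49%, and 5 sarcomere genes. Requiring the summit in the window gave a share both of 4.64%, 1.77% with no end near and 10 sarcomere genes. A span over 10000 bp gave 5.42%, near 42.2% of 1-end genes, inner 52.0%, a median span of 25118 bp and 11 sarcomere genes. Without genes near another coding gene end the count was 162, the share both 4.18%, the start stronger in 24.2% and 31.8%, inner 73.5% and the median span 24551.5 bp. A different peak at each end, and overlapping peaks at each end, moved nothing.

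With 1 list left out (list 1 or list 2), the count ranged from 461 to 880, the share both from 6.30 to 10.3%, near from 57.3 to 64.2% and in 1-end genes from 43.9 to 45.1%, inner from 47.3 to 59.3%, the median span from 17397 to 20556 bp, the 3′ shares from 40.6 to 48.8% and from 2.22 to 4.86%, and the sarcomere genes from 18 to 22. Leaving out list 1 gave a list 2 weaker-end fold of 3.07 and the start stronger in 49.2%, and leaving out list 2 gave 3.57 and 36.1% in list 1. In all alternatives that gave both 3′ shares, 3′ ends beside another start were marked more often than those with no annotated end near.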
